A study of Mus musculus with 6 samples.

Results

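The FGF pathway was read across 34 genes of the embryonic mouse handpad, the paddle at the end of the forelimb in which the digits separate. The set was taken by gene name and held 15 ligands, 5 receptors, 8 feedback inhibitors, 3 ETS transcription factors, and 3 binding or adaptor proteins. They were 34 of the 34989 genes that the deposited transcript tables covered, and 33 of them had enough counts to be tested. Fgf3 was the exception. Messenger RNA of 3 Grhl3 knockout handpads (genotype Grhl3KO) and 3 wild-type handpads (WT) had been sequenced, all at E14.5 (embryonic day) and of strain C57BL/6. The labels do not say which part of Grhl3 was removed or whether a library came from 1 embryo or a pool. The p-values therefore measure the spread between these libraries, which may be technical in part.

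Fibroblast growth factors (FGFs) are secreted proteins that bind tyrosine kinase receptors together with heparan sulfate and switch on the RAS and ERK kinase cascade. In the limb, the apical ridge signals through FGFs to the mesenchyme below it, mesenchymal FGFs signal back to the epithelium, and the loss of ridge FGFs goes with the regression of tissue between the digits. Cells that receive the signal transcribe ETS factors of the Etv group and inhibitors of the Sprouty, Spred and Dusp families, so these genes are widely used as readouts of FGF signalling. Grhl3 is a transcription factor of surface epithelium.

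The libraries held 38052692 to 56037639 estimated counts. Grhl3 itself measured 3.11, 2.86 and 2.95 CPM (counts relative to library size, scaled by the TMM method) in the knockout libraries, against 14.3, 45.7 and 18.5 CPM in the wild-type libraries. Epithelial marker genes differed in sum, at 3308 to 4557 CPM in the knockout and 1867 to 3217 CPM in wild-type libraries. Keratins made up much of that sum, with Krt5 at 1208 to 1623 CPM in the knockout and 578 to 1068 CPM in wild-type libraries. Outside the keratins, log2 fold changes were 1.27 for Cldn7, 0.86 for Cldn4, 0.79 for Cdh1, and 0.75 for Dsp and Epcam. They were 0.38 for Itgb4, 0.36 for Grhl2, 0.23 for Itga6, 0.18 for Trp63, 0.14 for Perp, 0.00 for Esrp1 and -0.34 for Esrp2. All 5 endothelial markers were higher in the knockout, with sums of 326 to 346 CPM against 273 to 299 CPM in wild-type libraries, and none passed the test. Cartilage markers summed to 1964 to 3126 CPM in the knockout and 3268 to 4707 CPM in wild-type libraries. In bulk samples, a change in the number of cells of a type and a change in RNA per cell cannot be told apart. Y-linked transcripts summed to 3.37, 4.11 and 4.43 CPM in the knockout libraries and 5.36, 290 and 341 CPM in the wild-type libraries, so genotype and embryo sex were partly aligned.

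Across the pathway, no member passed the test at an adjusted p under 0.05 (edgeR quasi-likelihood test with Benjamini-Hochberg adjustment over 16938 genes), against 0.431% of all genes. At an unadjusted p under 0.05 there were 3 of 33 members, 1 higher and 2 lower in the knockout, against 7.22% of all genes. These were Fgfbp1, which was higher, and Fgfr3 and Fgfrl1, which were lower. The groups did not overlap for 4 members, Fgf8, Fgfr4, Fgfrl1 and Fgfbp1, against 12.9% of all genes. The median log2 fold change (knockout minus wild-type) of the 33 was -0.06, and that of all genes was 0.00 to 2 decimals. DESeq2 and the likelihood ratio test of edgeR each called 1 member, Fgfbp1, at background shares of 1.77% and 1.54%.

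**Figure D1:**
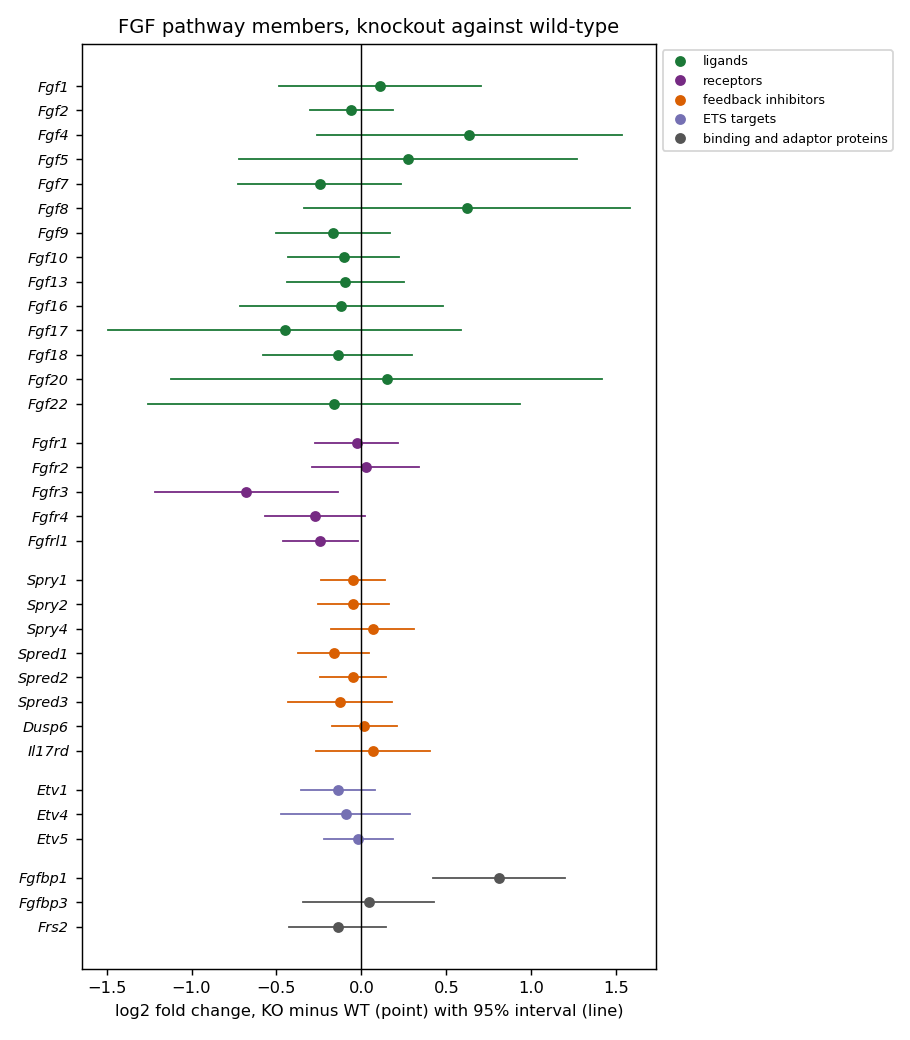
Log2 fold change, knockout minus wild-type, of the 33 tested FGF genes (points, n = 3 libraries per genotype) with 95% intervals (lines), in the order of their roles and coloured by role. The interval lies above 0 for Fgfbp1 and below 0 for Fgfr3 and Fgfrl1, and it spans 0 for the other genes.

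The ligands fell into a set that was clearly transcribed in the handpad and a set near the lower end of detection. Levels between genes are given in TPM (a deposited unit relative to transcript length and library size). Fgf18, a ligand of limb mesenchyme and forming bone, had the highest mean TPM, with 13.9, 14.7 and 15.6 TPM in the knockout and 18.7, 16.8 and 14.45 TPM in wild-type libraries. The ranges overlapped, and its log2 fold change was -0.14 (SE 0.19, adjusted p = 0.979, edgeR). Fgf2 had the next mean and was above Fgf18 in knockout replicate 1 and wild-type replicate 3, with 16.3, 10.3 and 10.6 TPM in the knockout and 10.5, 14.0 and 15.2 TPM in wild-type libraries. Its log2 fold change was -0.06 (SE 0.11, adjusted p = 0.988, edgeR), and the ranges overlapped. Per kilobase of the longest coding transcript the order was the other way, with 10.1 CPM for Fgf2 and 9.16 CPM for Fgf18.

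The other ligands with a mean of at least 5 TPM were Fgf13 (mean 9.71 TPM over the 6 libraries), Fgf10 (6.87), Fgf9 (5.93) and Fgf7 (5.39). Fgf10 and Fgf7 are mesenchymal ligands that act on the epithelial form of the receptor Fgfr2. Fgf9 is a ridge ligand that also acts in skeletal growth, while Fgf13 is a member of the family that stays inside the cell. Fgf10 averaged 6.62 ± 1.68 TPM in the knockout and 7.12 ± 0.549 TPM in wild-type libraries (SD, n = 3), and Fgf7 averaged 4.80 ± 0.921 and 5.97 ± 1.01 TPM in knockout and wild-type libraries (SD, n = 3). Fgf9 averaged 5.33 ± 0.329 TPM in the knockout and 6.53 ± 0.0828 TPM in wild-type libraries (SD, n = 3). The Fgf9 libraries did not overlap in TPM, with 5.35, 5.65 and 4.996 TPM in the knockout and 6.47, 6.49 and 6.62 TPM in wild-type, but they did in CPM, with 8.77, 10.1 and 9.19 CPM against 12.3, 9.67 and 9.57 CPM. On the counts, the Fgf9 log2 fold change was -0.17 (SE 0.15, adjusted p = 0.938, edgeR).

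**Figure D2:**
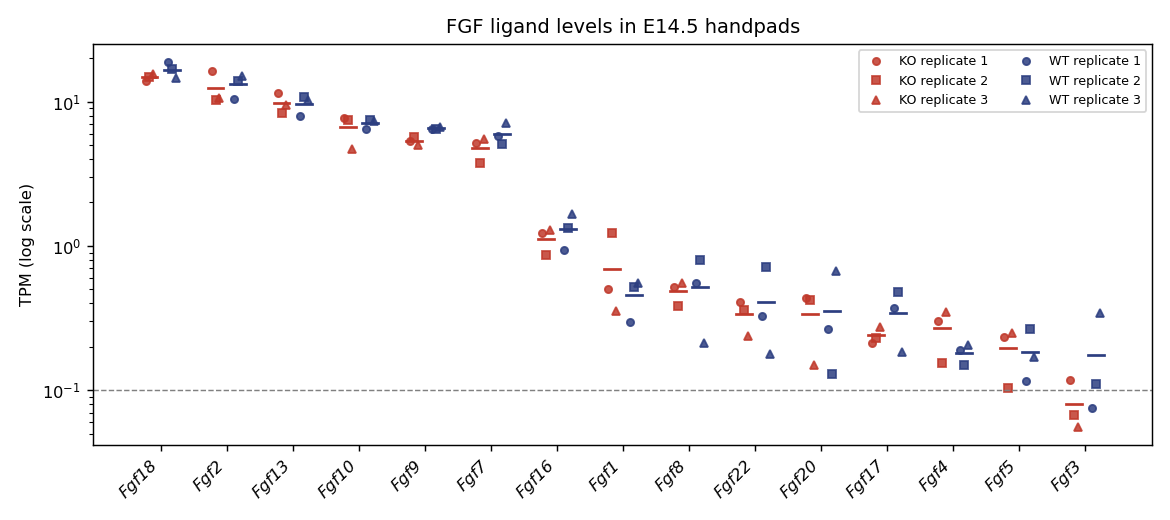
TPM (log scale) of the 15 FGF ligands in each library, ordered by mean level, with knockout libraries in red on the left and wild-type libraries in blue on the right of each pair; short lines are means of 3 libraries, and the dashed line is 0.1 TPM. The 6 ligands at the left lie above 3 TPM in every library, and the 8 at the right have means under 1 TPM.

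No ligand was absent by the threshold used, a mean under 0.1 TPM over the 6 libraries, and none was at 0 counts. Fgf16 averaged 1.22 TPM, and 8 ligands averaged under 1 TPM. These 8 were Fgf1 (mean 0.576 TPM), Fgf8 (0.503), Fgf22 (0.371), Fgf20 (0.347), Fgf17 (0.292), Fgf4 (0.225), Fgf5 (0.190) and Fgf3 (0.129). Fgf8, Fgf4 and Fgf17 are signals of the apical ridge at earlier stages, and together with Fgf9 they make up the classical ridge group. All libraries together held 38 estimated counts of Fgf3, 68 of Fgf8, 97 of Fgf17 and 166 of Fgf4. Fgf3, the lowest, would fall below 0.1 when its counts are divided by the length of its longest coding transcript (0.0589 CPM per kilobase). The threshold was set for TPM, and CPM per kilobase was lower than TPM for each ligand, so 0.1 is not the same level on both. In TPM Fgf3 reached 0.345 in wild-type replicate 3, where part of its 3 counts was assigned to a short transcript. By library Fgf3 was at 0.118, 0.068 and 0.056 TPM in the knockout and 0.075, 0.11 and 0.345 TPM in wild-type. Its mean was 0.0806 TPM in the knockout and 0.177 TPM in wild-type libraries, so only the knockout mean lay under the threshold. The Fgf3 mean over the 6 libraries lay above 0.1 TPM only through wild-type replicate 3. It is the ligand that came nearest to absence.

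Fgf8 was the ligand whose groups did not overlap, at 0.305, 0.274 and 0.291 CPM in the knockout and 0.238, 0.221 and 0.101 CPM in wild-type libraries. Each of these values rests on 4 to 16 estimated counts, and its log2 fold change of 0.62 had a 95% interval of -0.34 to 1.58 (adjusted p = 0.881, edgeR). Its TPM values overlapped, with 0.523, 0.383 and 0.554 TPM in the knockout and 0.553, 0.794 and 0.212 TPM in wild-type libraries. With effective-length offsets the Fgf8 value was 0.00 to 2 decimals. Over the 14 ligands tested, 9 had negative fold changes, with a median of -0.10 and a range of -0.45 to 0.64.

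Among the receptors, Fgfr1 and Fgfr2 were the most abundant and differed least. Fgfr1 is a main receptor of limb mesenchyme. It measured 325, 335 and 319 CPM in the knockout and 300.2, 361 and 337 CPM in wild-type libraries. The knockout range lay inside the wild-type range, and the log2 fold change was -0.03 (SE 0.11, adjusted p = 0.994, edgeR). Fgfr2, which serves epithelium and mesenchyme through different splice forms, measured 188, 207 and 164 CPM in the knockout and 152, 202 and 195 CPM in wild-type libraries. Its log2 fold change was 0.03 (SE 0.14, 95% interval -0.29 to 0.34, adjusted p = 0.997, edgeR). Per length, Fgfr1 averaged 107 ± 6.29 TPM in the knockout and 115 ± 22.2 TPM in wild-type libraries, and Fgfr2 averaged 89.2 ± 14.0 and 92.6 ± 24.0 TPM in knockout and wild-type libraries (SD, n = 3).

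Fgfr3, a receptor of cartilage that restrains bone growth and is also made by epidermis, was lower in the knockout. It lies on chromosome 5 (33721674 to 33737068, plus strand, mm10). It measured 69.9, 86.2 and 44.95 CPM in the knockout and 82.0, 121 and 118 CPM in wild-type libraries. Knockout replicate 3 was the lowest library, and wild-type replicate 1 lay below knockout replicate 2, so the groups overlapped. The log2 fold change was -0.68 (SE 0.24, 95% interval -1.22 to -0.14, unadjusted p = 0.0197, adjusted p = 0.493, edgeR). The authors' deposited table gives a log2 fold change of -0.68 and an FDR of 0.241 for Fgfr3. A fit with a term for Y-linked expression sets the knockout libraries against wild-type replicate 1 alone, and gave -0.29 for Fgfr3. That value rests on 1 wild-type library and is not a correction for embryo sex.

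Cartilage markers were also lower in the knockout. All 10 markers on that list had negative fold changes, with a median of -0.45 against 0.00 for all genes, and none of them passed the test. None was at 0 in the series. Col2a1, the main collagen of cartilage, measured 1822, 1774 and 1239 CPM in the knockout and 1975, 2884 and 1774 CPM in wild-type libraries. Knockout replicate 3 had the lowest sum of cartilage markers, 1964 CPM, as it had the lowest Fgfr3. Sox9, the factor that specifies cartilage, measured 80.8, 100.4 and 48.9 CPM in the knockout and 101, 104 and 94.4 CPM in wild-type libraries. The part of cartilage content in the Fgfr3 value was not tested.

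**Figure D3:**
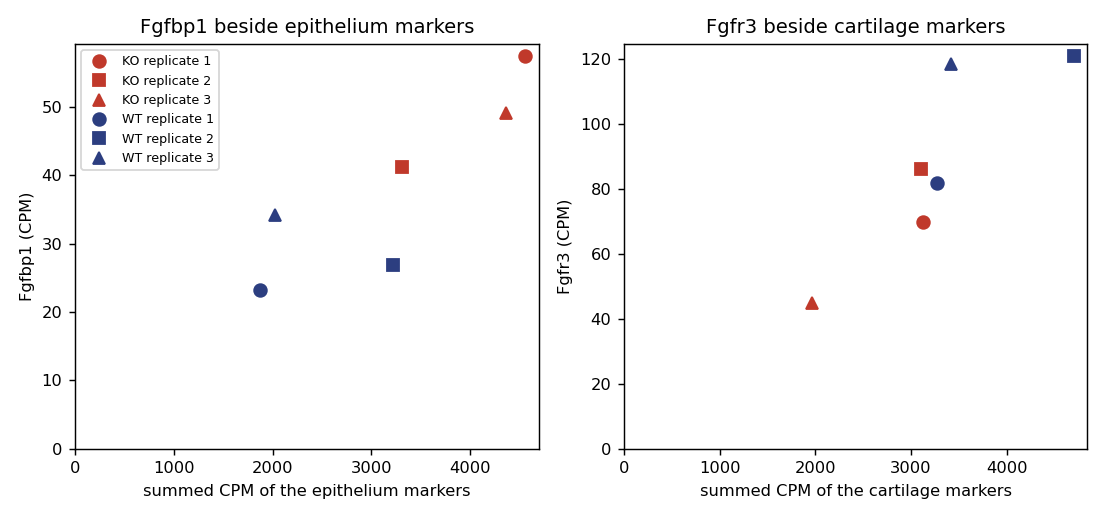
Left, Fgfbp1 against the summed CPM of 15 epithelial markers; right, Fgfr3 against the summed CPM of 10 cartilage markers; each point is a library, knockout in red and wild-type in blue. Knockout replicate 3, at 44.95 CPM of Fgfr3, is the lowest for cartilage, and knockout replicate 1, at 57.5 CPM of Fgfbp1, is the highest for epithelium. Other libraries with similar sums differ. Epithelial sums of 3308 CPM in knockout replicate 2 and 3217 CPM in wild-type replicate 2 stand beside Fgfbp1 at 41.2 and 26.9 CPM. Cartilage sums of 3126 and 3100 CPM in knockout replicates 1 and 2 stand beside Fgfr3 at 69.9 and 86.2 CPM.

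Fgfrl1, a receptor-like protein without a kinase domain, gave lower values in all 3 knockout libraries than in the wild-type libraries. Its levels were 58.9, 68.1 and 56.5 CPM in the knockout and 74.7, 69.7 and 72.7 CPM in wild-type libraries. The log2 fold change was -0.24 (SE 0.10, unadjusted p = 0.0345, adjusted p = 0.612, edgeR), and the authors' deposited table gives -0.24 with an FDR of 0.778. In TPM the distance was larger, with 39.7, 43.2 and 31.4 TPM in the knockout and 50.8, 57.4 and 57.0 TPM in wild-type libraries. With effective-length offsets, which take the change in transcript length into account, the log2 fold change was -0.47 (adjusted p = 0.351, edgeR).

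Fgfr4, a receptor known from muscle precursors, also did not overlap, at 11.1, 12.7 and 14.3 CPM in the knockout and 14.8, 15.2 and 16.04 CPM in wild-type libraries. Its log2 fold change was -0.27 (SE 0.13, adjusted p = 0.750, edgeR). Muscle markers summed to 288 to 479 CPM in the knockout and 290 to 528 CPM in wild-type libraries, and knockout replicate 3 and wild-type replicate 1 were the high ones. Of the 5 receptors, 4 had negative fold changes, with a median of -0.24.

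Fgfr1, Fgfr2 and Fgfr3 each carry a pair of alternative exons for the last part of the third immunoglobulin domain, which decides which ligands bind. The IIIb form is typical of epithelium, where the FGFR2 form receives Fgf7 and Fgf10, and the IIIc form is typical of mesenchyme. The exon pair of Fgfr3 is shown because the results turn on which of these exons a transcript holds. They are given 5′ to 3′ in the direction of the gene, as read from GENCODE transcripts of GRCm38 (mm10), and capitals mark the longest run that both exons share. They are coding exons of 151 and 145 bases at chr5:33731281-33731431 and chr5:33732117-33732261 (plus strand).
Fgfr3 IIIb: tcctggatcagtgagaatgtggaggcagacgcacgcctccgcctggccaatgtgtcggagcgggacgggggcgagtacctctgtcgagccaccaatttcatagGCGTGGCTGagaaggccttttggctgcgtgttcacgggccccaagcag
Fgfr3 IIIc: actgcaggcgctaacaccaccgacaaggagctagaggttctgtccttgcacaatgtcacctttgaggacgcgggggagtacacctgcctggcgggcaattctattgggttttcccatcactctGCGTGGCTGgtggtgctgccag

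The shared run of the Fgfr3 exons was 9 bases, and aligned end to end they were identical at 50.6% of positions. Transcripts of a gene also differ elsewhere, so the estimated counts of a class rest on more than reads over these exons, and their error from assignment is not known.

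The IIIb form made up a larger share of Fgfr2 transcripts in the knockout. Of the counts in IIIb and IIIc transcripts, IIIb held 43.3%, 42.2% and 58.8% in the knockout and 36.6%, 33.8% and 33.0% in wild-type libraries. The groups did not overlap, and knockout replicate 3 was the highest. Wilson 95% intervals, which cover counting error only, were within 2.3 percentage points of each share. The shares averaged 48.1% ± 9.31 in the knockout and 34.4% ± 1.89 in wild-type libraries (SD, n = 3; exact permutation test, two-sided, p = 0.1, adjusted over 3 receptors p = 0.3). With 3 libraries against 3, 0.1 is the smallest p this test can give. Without knockout replicate 3 the difference was 8.27 percentage points, against 13.6 with it. The 2 classes held 52.1% to 65.2% of the Fgfr2 counts in 5 libraries and 29.4% in wild-type replicate 1, the rest being in transcripts outside both classes.

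**Figure D4:**
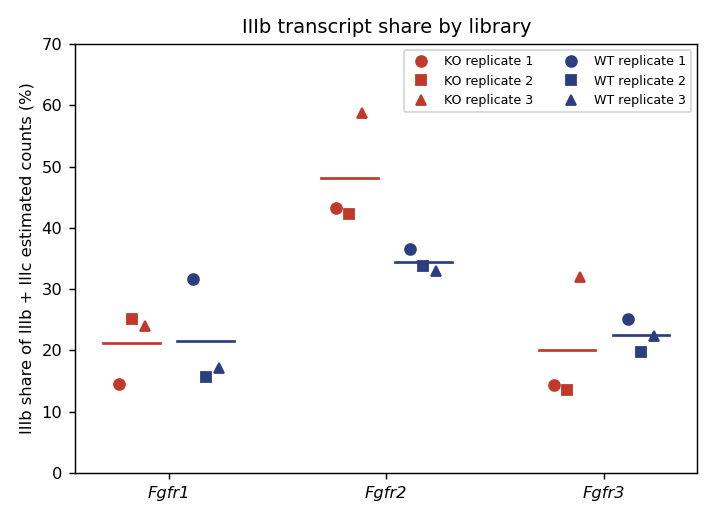
Share of IIIb among the IIIb and IIIc estimated counts (%) of Fgfr1, Fgfr2 and Fgfr3 in each library, knockout in red on the left and wild-type in blue on the right of each pair; lines are means of 3 libraries. For Fgfr2 every knockout library lies above every wild-type library, and for Fgfr1 and Fgfr3 the groups overlap.

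When the classes were tested as features of their own among all genes, Fgfr2 IIIb measured 53.2, 48.5 and 50.3 CPM in the knockout and 16.3, 41.7 and 37.5 CPM in wild-type libraries. The log2 fold change was 0.67 (SE 0.29, adjusted p = 0.685, edgeR), or 0.36 without wild-type replicate 1 (adjusted p = 0.118). Fgfr2 IIIc measured 69.7, 66.6 and 35.3 CPM in the knockout and 28.3, 81.6 and 76.3 CPM in wild-type libraries, and its log2 fold change was -0.12 (SE 0.39, adjusted p = 0.994, edgeR). Wild-type replicate 1 was low in both forms. Of 15 epithelial markers, 13 were higher in the knockout, with a median log2 fold change of 0.73. Cldn7 alone of the 15 passed the test, and none was at 0. The marker sums of replicates 1, 2 and 3 were 4557, 3308 and 4359 CPM in the knockout, beside IIIb shares of 43.3%, 42.2% and 58.8%. In wild-type libraries they were 1867, 3217 and 2028 CPM, beside shares of 36.6%, 33.8% and 33.0%. The share of wild-type replicate 1 rests on 29.4% of its Fgfr2 counts. Esrp1 and Esrp2, splicing regulators that favour IIIb exons in epithelium, had log2 fold changes of 0.00 and -0.34 and did not pass. The part of epithelial content in the IIIb share was not tested.

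Fgfr3 IIIb was lower in the knockout. It measured 8.95, 10.3 and 13 CPM in the knockout and 19.3, 20.9 and 23.2 CPM in wild-type libraries, so the groups did not overlap. Its log2 fold change was -0.97 (SE 0.16, adjusted p = 0.0511, edgeR), just outside the threshold, and no class of the 3 receptors passed. The background share of calls in this fit was 0.431%. At an unadjusted p under 0.05 there were 3 of the 9 classes (Fgfr2 IIIb, Fgfr3 IIIb and the Fgfr1 transcripts with neither exon), against 7.24% of all features. The adjusted p was 0.0273 without wild-type replicate 1, where genotype followed Y-linked expression, and 0.059 to 0.274 when any other library was left out. Fgfr3 IIIc measured 53.2, 65.3 and 27.8 CPM in the knockout and 57.6, 84.7 and 80.4 CPM in wild-type libraries, and its log2 fold change was -0.61 (SE 0.28, adjusted p = 0.729, edgeR). The IIIb share of Fgfr3 averaged 20.0% ± 10.4 in the knockout and 22.4% ± 2.64 in wild-type libraries (SD, n = 3; exact permutation test, two-sided, p = 0.8). By library it was 14.4%, 13.6% and 32.0% in the knockout and 25.1%, 19.8% and 22.4% in wild-type. Knockout replicates 1 and 2 thus lay below every wild-type library and knockout replicate 3 above. Fgfr1 IIIb held 21.2% ± 5.79 of the classed counts in the knockout and 21.5% ± 8.84 in wild-type libraries (SD, n = 3; exact permutation test, two-sided, p = 1.0).

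Fgfbp1 had the smallest p of all members. It encodes a secreted carrier, made by squamous epithelium, that releases FGFs from heparan sulfate in the matrix, and it lies on chromosome 5 (43978858 to 43981779, minus strand, mm10). It measured 57.5, 41.2 and 49.2 CPM in the knockout and 23.2, 26.9 and 34.2 CPM in wild-type libraries. Every knockout library was above every wild-type library. The log2 fold change was 0.81, a fold of 1.75 (SE 0.17, 95% interval 0.42 to 1.20, unadjusted p = 0.00121, adjusted p = 0.130, edgeR quasi-likelihood test). Its adjusted p was 0.00123 with DESeq2 and 0.00332 with the likelihood ratio test, and the authors' deposited table, which holds a likelihood ratio column, gives a log2 fold change of 0.81 and an FDR of 0.00349. The call thus depended on the test.

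Epithelial markers were also higher in the knockout, and their part in the Fgfbp1 value was not tested. Krt14, a keratin of the basal epidermis, measured 885, 597 and 859 CPM in the knockout and 281, 425 and 269 CPM in wild-type libraries, and Epcam, an epithelial adhesion protein, measured 77.5, 69.4 and 65.6 CPM against 34.7, 52.2 and 39.7 CPM. With libraries scaled on the epithelial markers, the log2 fold change of Fgfbp1 was 0.12 (adjusted p = 0.732, edgeR), where the median of all genes was -0.68. Fgfr3 passed in that scaling, with a log2 fold change of -1.29 (adjusted p = 0.00449, edgeR), where 2.56% of all genes passed, 2.18% as lower. A scaling of libraries shifts all genes by a similar amount. The place of a gene relative to the median of all genes is therefore kept and tells nothing about epithelial content.

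The remaining binding and adaptor genes lay closer to 0. Frs2, the adaptor that links the receptors to RAS, measured 79.1, 76.2 and 65.5 CPM in the knockout and 68.7, 83.3 and 91.2 CPM in wild-type libraries. Its log2 fold change was -0.14 (SE 0.12, adjusted p = 0.939, edgeR). Fgfbp3, a further FGF carrier, had 4.22 ± 0.405 CPM in the knockout and 4.10 ± 0.366 CPM in wild-type libraries (SD, n = 3).

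The 8 feedback inhibitors of the set, which read out signalling through ERK, differed by little between the genotypes. Outside the set, the ERK phosphatase Dusp5 had a log2 fold change of 1.01 (adjusted p = 0.187, edgeR) and is given below. Dusp6, a phosphatase of ERK and the highest of the 8 per length, measured 48.3, 49.1 and 47.5 CPM in the knockout and 48.8, 49.5 and 44.7 CPM in wild-type libraries. The Dusp6 log2 fold change was 0.02 (SE 0.08, 95% interval -0.18 to 0.21, adjusted p = 0.996, edgeR). Spry1, a Sprouty inhibitor, measured 57.0, 55.5 and 57.1 CPM in the knockout and 58.9, 61.3 and 55.1 CPM in wild-type libraries. Its log2 fold change was -0.05 (SE 0.08, 95% interval -0.24 to 0.14, adjusted p = 0.987, edgeR). For both genes the interval leaves room for changes of about the size of the spread between libraries and not for a fold of 1.75 as in Fgfbp1. This holds for the level in the whole handpad. A change confined to part of its cells could not be measured apart.

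Spry2, Spry4, Spred1, Spred2, Spred3 and Il17rd, an inhibitor at the membrane, lay between -0.16 and 0.07 on the log2 scale, and none passed the test. The most negative was Spred1, which couples neurofibromin to RAS, at -0.16 (SE 0.09, 95% interval -0.37 to 0.04, adjusted p = 0.810, edgeR). Of the 8 inhibitors, 5 had negative fold changes, with a median of -0.05. Summed over the 8, the level was 463, 459 and 438 CPM in the knockout and 466, 472 and 471 CPM in wild-type libraries. The sums did not overlap, but the distance between the nearest libraries was under 1% of the level.

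The ETS factors, which FGF signalling induces in limb and other tissues, also lay close to 0. Etv5, the highest, measured 60.0, 53.8 and 55.6 CPM in the knockout and 60.7, 56.3 and 54.5 CPM in wild-type libraries (log2 fold change -0.02, SE 0.09, 95% interval -0.22 to 0.19, adjusted p = 0.997, edgeR). Etv4 measured 15.2, 18.1 and 17.9 CPM in the knockout and 22.6, 14.95 and 17 CPM in wild-type libraries, where replicate 1 was the highest (log2 fold change -0.09, SE 0.17, adjusted p = 0.987, edgeR). Etv1 averaged 30.1 ± 2.03 CPM in the knockout and 33.1 ± 1.37 CPM in wild-type libraries (SD, n = 3).

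**Figure D5:**
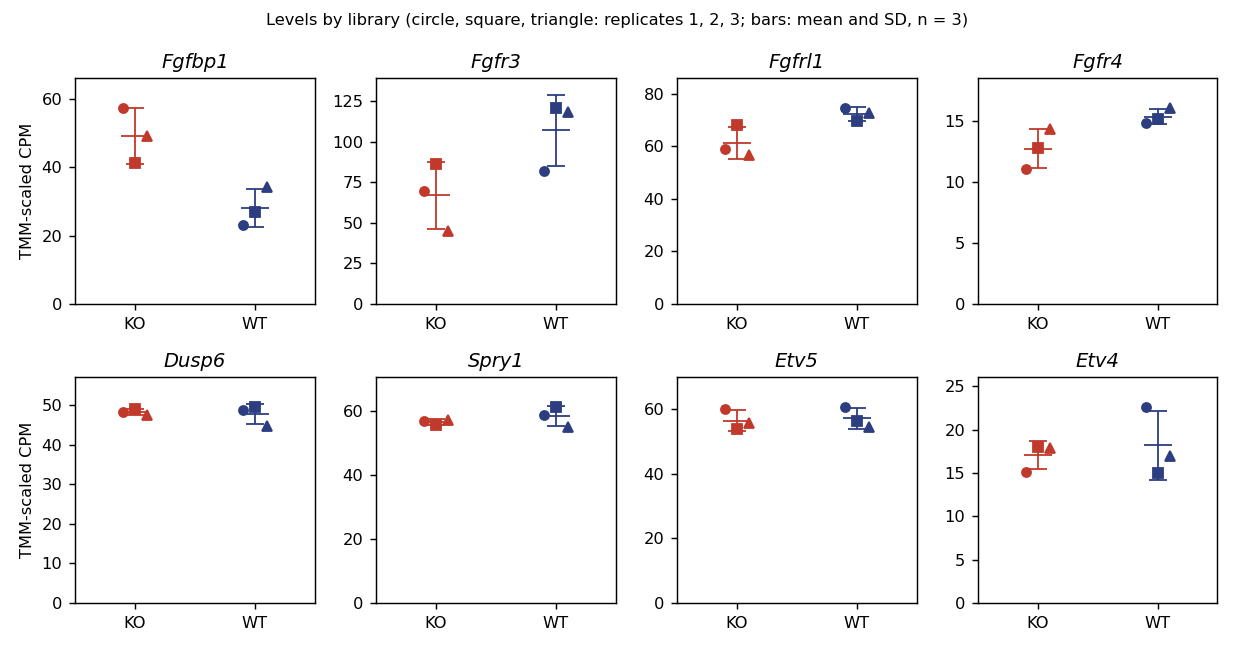
TMM-scaled CPM of Fgfbp1, Fgfr3, Fgfrl1 and Fgfr4 (top) and of the readout genes Dusp6, Spry1, Etv5 and Etv4 (bottom) in each library, knockout in red on the left and wild-type in blue on the right; bars give the mean and SD of 3 libraries. Fgfbp1 is higher and Fgfrl1 and Fgfr4 are lower in every knockout library, while the genotypes overlap in Fgfr3 and in the 4 readout genes.

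Of 56 further genes of FGF signalling, 53 were tested and none passed with the quasi-likelihood test, against 0.431% of all genes. At an unadjusted p under 0.05 there were 3 of the 53 (Dusp5, Araf and Sdc1), against 7.22% of all genes. The groups did not overlap for 5 of the 53 (Dusp5, Araf, Sdc1, Ext1 and Flrt3), against 12.9% of all genes. The median log2 fold change of the 53 was 0.02. DESeq2 and the likelihood ratio test each called 1, Dusp5, a nuclear phosphatase of ERK, where 1.77% and 1.54% of all genes passed. Dusp5 measured 3.61, 3.31 and 2.60 CPM in the knockout and 1.51, 1.89 and 1.32 CPM in wild-type libraries, with no overlap (log2 fold change 1.01, SE 0.23, adjusted p = 0.187, edgeR quasi-likelihood test). Araf, a RAF kinase, measured 70.01, 80.5 and 81.2 CPM in the knockout and 83.7, 98.1 and 107 CPM in wild-type libraries, with no overlap (log2 fold change -0.32, adjusted p = 0.507, edgeR). Araf lies on chromosome X. Its higher wild-type values, 98.1 and 107 CPM, were in the libraries with Y-linked sums of 290 and 341 CPM. The part of embryo sex in the Araf value was not tested. Sdc1, a heparan sulfate proteoglycan of epithelium, measured 433, 433 and 418 CPM in the knockout and 362, 379 and 359 CPM in wild-type libraries (log2 fold change 0.22, adjusted p = 0.685). Ext1, which builds heparan sulfate chains, Flrt3, a membrane partner of the receptors, and Spry3 had log2 fold changes of 0.19, 0.19 and -0.43, with adjusted p-values of 0.698 to 0.848 (edgeR).

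By group, the 20 adaptors and RAS-ERK genes had a median of -0.01 and summed to 1906 to 1920 CPM in the knockout and 1919 to 1963 CPM in wild-type libraries. The 22 co-receptor and heparan sulfate genes had a median of 0.07, with 16 positive. Among FGF genes outside the 15 ligands, Fgf15, Fgf21 and Fgf23 had too few counts to test, with 21, 38 and 20 estimated counts over all libraries.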

How the data were processed

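Total RNA of 3 Grhl3 knockout and 3 wild-type handpads was made into stranded mRNA libraries, per the labels. Per the submitters' processing notes, the authors used FastQC and kallisto with the mm10 build. Neither the version of kallisto nor its transcript set is stated in the sources used here. The deposited tables hold, per the file headers, estimated counts (not normalized), TPM and the effective length of 111462 transcripts. The authors' deposited comparison table of 941 genes, named for edgeR, holds log2 values (fold change and CPM), the likelihood ratio as a score, p-values and the FDR.

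Of the transcripts, 110203 matched GENCODE M21 (mm10) by unversioned identifier. The 1259 without a match held 0.504% to 0.566% of a library's counts. Estimated counts and TPM were summed per gene, and counts were rounded. Genes passing filterByExpr (minimum count 10, minimum total 15) were tested with edgeR 4.0.16 in R 4.3.3 (TMM, glmQLFit, glmQLFTest, genotype as the only term), calling adjusted p under 0.05. The SE was the unshrunk log2 fold change divided by the square root of F, and 95% intervals used the total degrees of freedom of the test. The script was tested on simulated counts. No molecular identifiers are stated, so reads may repeat molecules and intervals on counts cover counting error only.

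Alternatives were DESeq2 1.42.0, limma-voom 3.58.1, the likelihood ratio test, other scalings, no filter, length offsets, a Y-linked term, the replicate block and each library left out. The transcript class fits, and CPM per kilobase for ligands, were chosen after seeing the data. IIIb transcripts hold the upstream and IIIc transcripts the downstream exon of the one pair of mutually exclusive coding exons between the same neighbours. The members and lists were chosen with earlier results of these data known. Per-library values are given for members with an unadjusted p under 0.05, without overlap of the groups, or among the 2 highest of their role in TPM, and for up to 6 further pathway genes with the smallest p. Fgf9, Col2a1, Sox9, Krt5, Krt14, Epcam, Cdh1, Cldn4, Cldn7, Dsp, Grhl2, Itga6, Itgb4, Trp63, Perp, Esrp1 and Esrp2 were named after their values were seen. The exon sequences of Fgfr2 are not reported here.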

Additional observations from a re-analysis of the deposited data

How the results depend on the processing

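No FGF member or further pathway gene was called in any fit that left out 1 library, with RLE scaling, no filter, limma-voom, length offsets, the Y-linked term or the replicate block, at an adjusted p under 0.05. The exceptions were 1 member with DESeq2 (Fgfbp1), 1 with the likelihood ratio test (Fgfbp1) and 1 with epithelial scaling (Fgfr3), and 1 further pathway gene (Dusp5) with DESeq2 and with the likelihood ratio test. The number of genes called over the whole table was 73, against 433 with epithelial scaling, 118 with no filter, 299 with DESeq2, 260 with the likelihood ratio test, 45 with limma-voom, 44 with length offsets and 47 with the replicate block, and 10 to 206 with 1 library left out. Leaving out wild-type replicate 3 gave the 10 and leaving out wild-type replicate 1 the 206. In the fit without wild-type replicate 1, genotype followed Y-linked expression. The count was 17 when knockout replicate 1 was dropped, 22 when knockout replicate 3 was and 45 when wild-type replicate 2 was. The cause of these differences was not tested. Of 221 alternative values for the 14 members with full values, 15 changed sign. The fit they were compared with had called no member, so this says nothing about called members. With 1 library left out, the log2 fold change ran from -0.173 to 0.0135 for Fgf2, -0.284 to 0.0899 for Fgf18, -0.0955 to 0.0355 for Fgfr1, -0.0919 to 0.110 for Fgfr2, -0.0307 to 0.0477 for Dusp6, -0.215 to 0.0955 for Etv4 and -0.0627 to 0.0286 for Etv5. The fit with the Y-linked term compares the knockout with wild-type replicate 1 alone. It gave 0.12 for Fgfr1, -0.0155 for Dusp6 and 0.0985 for Frs2, and the values that moved further without a change of sign included Fgf18 at -0.51, Etv4 at -0.41, Fgfr2 at 0.30 and Fgfbp1 at 1.09. With epithelial scaling it was -0.61 for Fgfr2 and -0.65 for Dusp6, where the median of all genes was -0.68, and with length offsets it was -0.0011 for Fgf8. Fgfbp1 ran from 0.685 to 0.97 and Fgfr3 from -0.90 to -0.46 with 1 library left out. The difference in IIIb share ran from 8.27 to 16.6 percentage points for Fgfr2, -3.29 to 4.72 for Fgfr1 and -8.40 to 0.780 for Fgfr3 with 1 library left out. The number of ligands called absent was 0, against 6 under 0.5 TPM and 1 by CPM per kilobase, a measure that was lower than TPM for each ligand. For Fgf3 the 0 rested on wild-type replicate 3. Ligands under 1 TPM rest on 38 to 444 counts over 6 libraries. The SE of the log2 fold change was 0.26 for Fgf1 and 0.39 to 0.55 for the others tested, so small changes were hardly detectable. Replicate numbers did not pair the libraries: deviations of same-numbered libraries from their group means correlated at -0.244, -0.0916 and -0.162. With the replicate block, Fgfbp1 had a log2 fold change of 0.81 (adjusted p = 0.266) and Fgfr3 of -0.70 (adjusted p = 0.595, edgeR).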
